A study of Rattus norvegicus with 6 samples.

Results

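The genes that build, load and regulate the major histocompatibility complex (MHC) molecules were examined in cultured rat RA-FLS, the fibroblast-like synoviocytes of a rheumatoid arthritis (RA) model. They were taken by name from the protein-coding rows of the count table: every gene whose symbol begins with RT1 (the rat MHC), together with B2m, Nlrc5, Ciita, Cd74, Tap1, Tap2, Tapbp, Tapbpl, Erap1, Psmb8, Psmb9 and Psmb10. This gave 43 of the 34156 listed genes, made up of 21 RT1 class I heavy chains, 10 RT1 class II chains and the 12 genes without an RT1 name.

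RNA-seq was performed on 6 libraries of wild-type rat cells in 2 groups of 3. Every culture received TNF-α at 10 ng/mL, and the TNF-α+EMO group also received 80 μmol/L of EMO (emodin, an anthraquinone found in rhubarb). The cells were a purchased rat RA-FLS culture, grown to the 4th passage per the sample labels. The study's methods call the libraries of a group biological replicates without saying how they were separated, and p-values measure the spread between these libraries. The sample labels give day 5 as the time whereas the study's methods give a shorter incubation, and no library without TNF-α was analysed here.

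MHC class I molecules present peptides cut inside the cell to CD8 T cells. The proteasome cuts proteins, the TAP transporter carries the peptides into the endoplasmic reticulum, and tapasin helps to load them on a heavy chain paired with β2-microglobulin. MHC class II molecules present peptides from endosomes to CD4 T cells and travel there with the invariant chain Cd74. Macrophages, dendritic cells and B cells carry class II constantly, whereas synovial fibroblasts are known to gain it when interferon-γ switches on Ciita, the master activator of class II genes. Nlrc5, a relative of Ciita, acts on class I genes.

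The libraries held 16813322 to 17794455 counts. Counts of libraries within a group were compared by a chi-square averaged per gene, which is larger where 2 libraries differ more. In the TNF-α+EMO group it was 25.2 and 16.1 for replicate 3 against replicates 1 and 2. Between replicates 1 and 2 it was 6.63, and within the TNF-α group it was 4.72 to 5.85. Replicate 3 of the TNF-α+EMO group thus stood apart from the others of its group. The labelled cell type was checked against its markers. Col1a1, Pdgfra and Vim were abundant in the TNF-α group, but Pdpn, Thy1 and Prg4, 3 defining synovial fibroblast markers, stayed at 7 counts or fewer in every library. The epithelial keratin Krt8 held 9939.8 to 10801 normalized counts in the TNF-α group and 1968 to 2304 in the TNF-α+EMO group. The other epithelial markers read were near empty: Epcam had no count, Krt18 held at most 1 and Cdh1 at most 6 counts in any library. The summed fibroblast markers ranged from 188499 to 208989 normalized counts in the TNF-α group and from 35094 to 37780 in the TNF-α+EMO group. The 6 of 9 that were tested were all lower with EMO, including Vim (log2 fold change -0.92) and Pdgfra (-6.59). Of all tested genes, 41.4% were lower by the same rule, given below. Fap, 1 of the 6, held 27, 42 and 27 counts against 0, 0 and 0. It reached the minimum for testing through the TNF-α group alone, which favours a difference. Col1a2 and Pecam1 were not analysed here.

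Ciita and 3 of the 4 tested classical class II chains held at most 5 counts in any library with EMO, RT1-Db1 and Cd74 were lower but still measured, the immunoproteasome genes and 12 of 16 tested class I heavy chains were lower, and RT1-DOb and Tap1 were higher. Of the 43 genes, 33 held at least 10 counts in at least 3 libraries and were tested. A gene was called where its p, adjusted by Benjamini-Hochberg over all 13614 genes tested with the quasi-likelihood method of edgeR, was under 0.05. By this rule 26 were lower with EMO, 4 were higher and 3 were not called. With a log2 fold change beyond 1 in addition, 18 were lower (54.5% of those tested, where 27.8% of all tested genes were lower by this rule) and 2 were higher (6.06%, where 19.5% of all tested genes were higher, and 47.3% passed in either direction). Of the 33 tested genes, 9 reached 10 counts in all 3 libraries only in the group in which they were higher. They were Ciita, RT1-Da, RT1-Ba, RT1-Bb, RT1-S3, RT1-T24-3, RT1-CE3, RT1-DOb and RT1-M6-2. RT1-M6-2 also reached 10 counts in 2 TNF-α libraries and RT1-S3 in 1 TNF-α+EMO library. Passing the minimum of 10 counts in 3 libraries through 1 group favours a difference. The counts and the median are therefore given as a description. Of the 18 lower, 11 passed the minimum in both groups, and the count was 14 or 15 when a TNF-α library was left out. Genes with fewer than 10 counts in every TNF-α+EMO library then missed the minimum, while others newly passed the fold limit. These were Erap1 and RT1-M3-1 without any 1 TNF-α library, and RT1-CE7 without TNF-α replicate 2 or 3. The 2 that were higher were RT1-DOb and RT1-M6-2, and the count was 1 when any TNF-α+EMO library was left out, since RT1-DOb then missed the minimum. Without the fold limit, 41.4% of all tested genes were lower and 39.4% higher. The 3 libraries of each group did not overlap in 30 of the 33 genes, against 82.9% of all tested genes. Their median log2 fold change was -1.38, and that of all tested genes was -0.01. The cells were measured in bulk, so fewer expressing cells and less RNA per cell cannot be told apart.

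**Figure D1:**
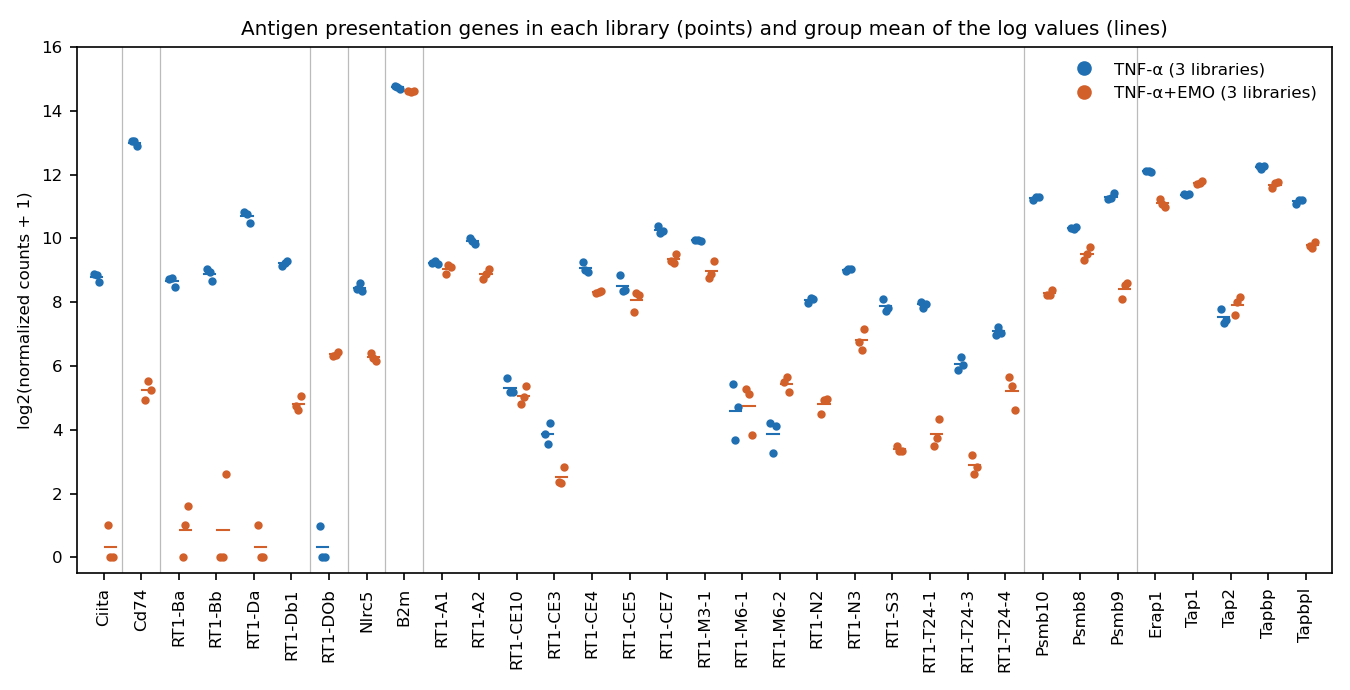
The 33 tested genes are shown by role on the horizontal axis, with log2(normalized counts + 1) on the vertical axis, 1 point per library and a line at the mean of each group's log values. Ciita, RT1-Ba and RT1-Da held at most 2 counts in any TNF-α+EMO library, RT1-Bb held 0, 0 and 5, RT1-DOb lay near 0 in all 3 TNF-α libraries, and B2m lay near the same height in both groups.

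Ciita, the class II transactivator (chr10:5213350-5260608 in the deposited coordinates, build Rnor_6.0), held 486, 473 and 407 counts with TNF-α alone, against 1, 0 and 0 counts with EMO added. The groups lay far apart, and a single count was found over all TNF-α+EMO libraries. The ratio of the summed counts, scaled by library size, was 1302, with a 95% counting interval of 233 to 51479.9 (exact binomial; adjusted p = 4.27e-10 by edgeR). Such intervals cover counting error only. Cd74, the invariant chain that escorts class II molecules and keeps their groove closed, was the most abundant class II gene by counts per kilobase of gene length, at 5889 ± 382 in the TNF-α group (SD, n = 3). Its normalized counts were 8561, 8432 and 7583 with TNF-α and 29.9, 45.02 and 36.7 with TNF-α+EMO. Cd74 therefore stayed measurable in every library while its log2 fold change was -7.78, with a standard error of 0.12 (adjusted p = 2.24e-12 by edgeR).

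The classical class II molecules of the rat are RT1-B and RT1-D, each an α chain (Ba, Da) paired with a β chain (Bb, Db1). RT1-Da (chr20:4127644-4132616) held 1858, 1800 and 1461 counts with TNF-α alone, against 1, 0 and 0 counts with EMO added. The scaled ratio was 4881 (95% counting interval 876 to 192815; adjusted p = 3.61e-11 by edgeR). RT1-Ba (chr20:4066132-4070721) held 429, 441 and 365 counts against 0, 1 and 2, a ratio of 393 (134 to 1906; adjusted p = 1.02e-09). RT1-Ba and RT1-Da, the 2 α chains, were thus both down to at most 2 counts in any library with EMO. RT1-Bb (chr20:4039413-4049711) held 537, 503 and 416 counts against 0, 0 and 5, a ratio of 278 (119 to 856; adjusted p = 5.66e-07). All 5 of its counts with EMO came from replicate 3, and without that library the TNF-α+EMO group had no count. RT1-Db1 (chr20:4087618-4097190) kept more, with normalized counts of 561, 596 and 632 in the TNF-α group and 25.8, 23.5 and 32.6 in the TNF-α+EMO group. Its log2 fold change was -4.44 (standard error 0.14, adjusted p = 2.73e-10). The β chain gene RT1-Db2, which lies between RT1-Db1 and RT1-Da, had no count in any library.

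The nonclassical class II genes load and edit peptides rather than present them. RT1-DM (DMa and DMb) exchanges the Cd74 fragment for a peptide, and RT1-DO (DOa and DOb) holds DM back and is best known from B cells. RT1-DOb (chr20:4020317-4026346) went the other way from the classical chains: it held 1, 0 and 0 counts with TNF-α alone and 76, 78 and 85 counts with EMO added. The groups did not overlap, and the scaled ratio was 251 higher with EMO (95% counting interval 44.6 to 9942; adjusted p = 1.57e-07 by edgeR). Its partner chain RT1-DOa, and RT1-Ha, had no count in any library. RT1-DMb held 5, 6 and 8 counts against 0, 0 and 0, which puts it at least 6.04-fold lower with EMO against a floor of 3 counts over the group. RT1-DMa held 20, 9 and 220 counts against 0, 1 and 2. Both DM genes missed the minimum for testing, and the RT1-DMa ratio of 79.1 (26.8 to 386) rested on TNF-α replicate 3, without which it was 13.8 (4.29 to 71.0). Further RT1-like rows outside the RT1 names were taken as copies of the DM genes, though sequence identity was not computed. LOC108348139, taken as a β chain, held 299, 7.80 and 159.8 normalized counts with TNF-α and 0, 3.07 and 0 with TNF-α+EMO. LOC108348072, taken as an α chain, held 32.4, 25.4 and 25.3 against 0, 4.09 and 3.06. How reads were divided among these rows is not given in the sources used here, so the single DM values are uncertain. The TNF-α libraries held more than the TNF-α+EMO libraries in each of the 4 rows.

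Summed over the 10 class II chains, so that the division of reads among them does not matter, the TNF-α libraries held 3357, 3286 and 3038 normalized counts and the TNF-α+EMO libraries 105, 105 and 128. The sum was 28.6-fold lower with EMO (log2 fold change -4.84, standard error 0.09, adjusted p = 8.96e-12 by edgeR). RT1-DOb and RT1-Db1 made up nearly all that was left with EMO. Without RT1-DOb and RT1-DMa, a sum chosen after seeing the data, the log2 fold change was -6.69.

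Markers of the cells that carry class II constantly were read in both groups. The leukocyte marker Ptprc held at most 1 count in any library, the macrophage receptor Csf1r at most 5, Adgre1 at most 3, and Cd163 and the dendritic cell receptor Xcr1 none. Over the 10 macrophage markers the summed level ranged from 1206 to 1312 normalized counts with TNF-α and from 747 to 818 with TNF-α+EMO, nearly all of it Cd14 and Cd68. Of the 3 tested, Cd14 was lower with EMO (log2 fold change -1.10), and Cd68 (0.75) and Itgam were higher. Itgam held 1, 0 and 0 counts with TNF-α and 12, 10 and 14 with TNF-α+EMO, and reached the minimum through the latter group alone. Of the 6 dendritic cell markers the sum was 846 to 901 against 1861 to 1902, most of it Itgax, which was higher with EMO (log2 fold change 1.92), and Zbtb46, which was lower (-2.26). The 4 B cell markers summed to at most 3.92 normalized counts and 3 of them had no count. The 5 T and NK cell markers summed to at most 3.07, and the 4 endothelial markers to 69.2 to 76.5 with TNF-α and 13.2 to 21.7 with TNF-α+EMO. The fall of the fibroblast markers moved with that of the class II genes, and its part in the result was not tested.

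To show what the class II start sites hold, promoter windows of 300 bases (250 before and 50 after the gene start) were read from RefSeq for build GRCr8, in which 36 of the 43 genes were matched. RFX, with its subunits Rfx5, Rfxap and Rfxank, is known to bind the X box of class II promoters and NF-Y the Y box, and Ciita docks on both. The X box core was searched as GCAAC, any base and GATG, and the Y box core as CCAAT, on both strands. The X box core was present in 0.14% of 33469 rat promoters and in 4 of the 36: RT1-Da, RT1-Db1, RT1-Db2 and RT1-DOb. In these 4 it was followed, 30 to 33 bases later, by a Y box core on the opposite strand. The Y box core was present in 37.5% of all promoters and in 27 of the 36. RT1-Da (chr20:4515165-4515464, plus strand) and RT1-DOb (chr20:4627474-4627773, minus strand) are printed as the class II chain with the largest ratio of counts between the groups and the class II chain that rose, with the X box and Y box cores in capitals.
RT1-Da: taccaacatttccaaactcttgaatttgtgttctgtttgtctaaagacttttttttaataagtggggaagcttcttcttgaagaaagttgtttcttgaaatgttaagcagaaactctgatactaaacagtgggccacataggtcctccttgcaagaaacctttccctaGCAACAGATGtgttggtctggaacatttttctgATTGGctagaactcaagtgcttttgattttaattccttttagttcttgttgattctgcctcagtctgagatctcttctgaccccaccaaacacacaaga
RT1-DOb: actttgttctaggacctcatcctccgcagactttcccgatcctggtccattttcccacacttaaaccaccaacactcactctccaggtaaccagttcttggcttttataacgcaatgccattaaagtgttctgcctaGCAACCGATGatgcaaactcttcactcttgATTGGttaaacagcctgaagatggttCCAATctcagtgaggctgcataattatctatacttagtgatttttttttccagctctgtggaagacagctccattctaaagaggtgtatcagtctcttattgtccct
The X box core began 82 bases before the start of RT1-Da and 113 bases before that of RT1-DOb. The same pair of cores therefore stood before genes that moved in opposite directions, and before RT1-Db2, which had no count. A match of letters shows no binding, and the windows without a match were searched for these letters only.

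**Figure D2:**
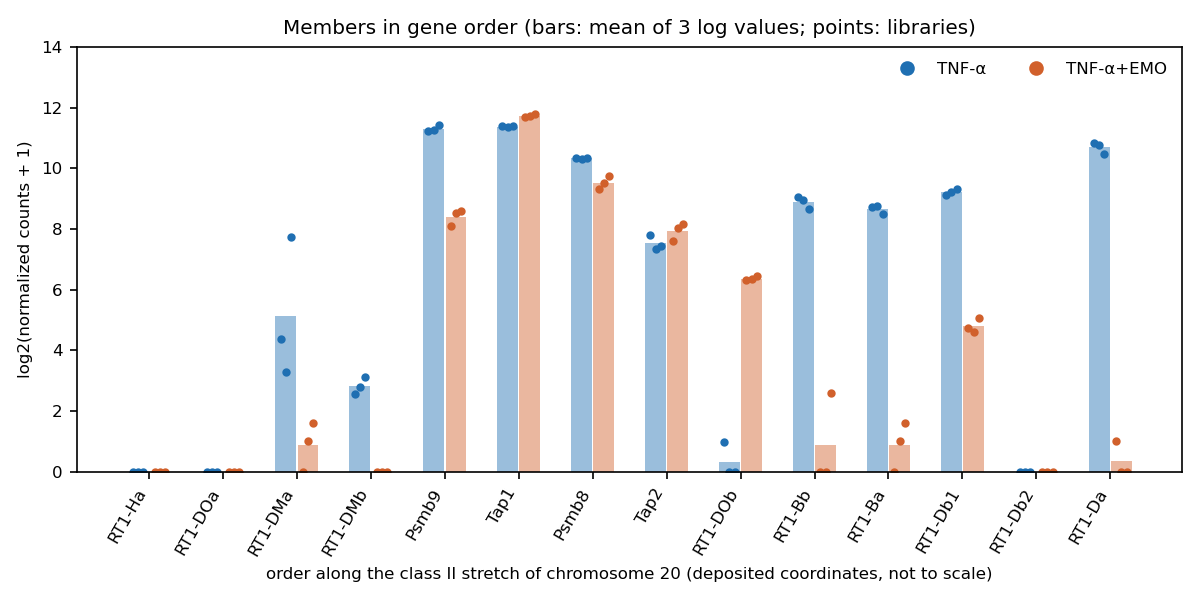
The 14 genes from RT1-Ha to RT1-Da are placed in their order along chromosome 20 (not to scale), with log2(normalized counts + 1) on the vertical axis, bars for the mean of the 3 log values and points for libraries. Neighbours differed in direction: Tap1 and RT1-DOb were higher with EMO, while Psmb9, Psmb8, RT1-Bb, RT1-Ba, RT1-Db1 and RT1-Da were lower.

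The class II stretch of chromosome 20 also holds Psmb8, Psmb9, Tap1 and Tap2, and 36 of the 43 genes lay on chromosome 20, between positions 154074 and 5476193. Psmb9 (chr20:3973420-3978845) and Tap1 (chr20:3979035-3989669) lie head to head with 189 bases between them in the deposited coordinates, and they moved in opposite directions with EMO, as given next.

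The immunoproteasome subunits Psmb8, Psmb9 and Psmb10 replace the catalytic subunits Psmb5, Psmb6 and Psmb7 and favour cuts that suit class I. Psmb9 fell from 2414, 2467 and 2756 normalized counts to 274, 370.4 and 385 (log2 fold change -2.89, standard error 0.12, adjusted p = 3.54e-09 by edgeR). Psmb10 fell from 2350, 2505 and 2505 to 300.1, 297 and 332 (-2.99, standard error 0.08, adjusted p = 4.92e-11). Psmb8 fell less, from 1292, 1264 and 1299.6 to 633, 735 and 853 (-0.80, standard error 0.10, adjusted p = 2.26e-05). The groups were apart for all 3 subunits, as they were for 82.9% of all tested genes. The fall of Psmb8 was 1.74-fold against 7.41-fold for Psmb9 and 7.92-fold for Psmb10.

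Their constitutive partners did not fall. Psmb6 rose by a log2 fold change of 1.80 and Psmb5 by 0.60 (adjusted p = 1.68e-06 and 0.000404 by edgeR), while Psmb7 had 0.05 (adjusted p = 0.66). In counts per kilobase, Psmb9 made up 45.9% ± 1.49 of the Psmb9 and Psmb6 total in the TNF-α group and 3.20% ± 0.520 in the TNF-α+EMO group (SD, n = 3 each). Psmb10 made up 70.6% ± 1.19 of its pair with Psmb7 and then 22.9% ± 3.10. For Psmb8 and Psmb5 the share was 23.9% ± 0.820 and then 10.6% ± 0.281. None of the 3 shares overlapped between the groups. The two-sided exact permutation p was 0.1 for each, also when adjusted over the 3 shares, which is the smallest that 3 libraries against 3 can give. Of 7 tested genes of the constitutive proteasome and its regulators, 2 were lower, 4 were higher and 1 was not called. The activator subunit Psme2, which opens the proteasome in cells responding to interferon, fell by 1.44 on the log2 scale (adjusted p = 1.92e-07), and its partner Psme1 held at most 4 counts in any library. Some further genes of the pathway lists, here and later, were named after their values were seen. In this list they were the nuclear activator Psme3 (log2 fold change 1.11, adjusted p = 4.49e-08) and Psmf1 (0.81, 3.41e-07), which rose, and Psme4 (-0.32, 0.00407), which fell.

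**Figure D3:**
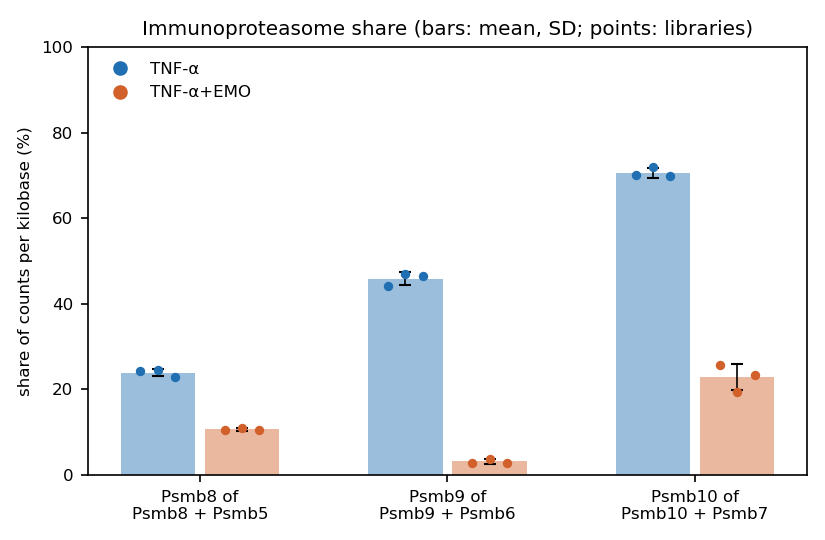
The share of each immunoproteasome subunit in the sum with the constitutive subunit it replaces is shown in percent of counts per kilobase, with bars for the mean, error bars for the SD and points for the 3 libraries of a group. All 3 shares were lower in every TNF-α+EMO library than in any TNF-α library, and that of Psmb9 dropped from 45.9% to 3.20%.

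Peptide transport and loading moved in both directions. Tap1, a subunit of the peptide transporter, rose from 2669, 2609 and 2668 to 3313, 3379 and 3545 normalized counts (log2 fold change 0.37, standard error 0.06, adjusted p = 0.000114 by edgeR). Every TNF-α+EMO library lay above every TNF-α library. Per kilobase, Psmb9 stood at 2.46, 2.57 and 2.81 times Tap1 with TNF-α alone and at 0.225, 0.298 and 0.296 times Tap1 with EMO added. Tap2, the partner of Tap1, had 220, 161 and 173 against 193, 259 and 283 normalized counts. Its libraries overlapped, and its call (log2 fold change 0.41, standard error 0.17, adjusted p = 0.0495) was lost without TNF-α replicate 2 (adjusted p = 0.284) or 3 (0.23), without TNF-α+EMO replicate 2 (0.109) or 3 (0.0916), and with every other scaling tried. Over its 13 alternatives the adjusted p of Tap2 ran from 0.00565 to 0.284. Tapasin (Tapbp), the bridge between transporter and class I, fell from 4985, 4670.03 and 4965 to 3035, 3377 and 3489.8 (-0.56, standard error 0.07, adjusted p = 1.42e-05), and an antisense gene overlaps it whose reads cannot be told apart without strand. Tapbpl, a tapasin-like peptide editor, fell from 2177, 2369.6 and 2351 to 867, 838 and 939 (-1.38, standard error 0.07, adjusted p = 1.05e-08). Erap1, which trims peptides in the endoplasmic reticulum, fell from 4460, 4436 and 4296 to 2419, 2143 and 2047 (-0.997, standard error 0.07, adjusted p = 1.68e-07), at 1.996-fold just short of the 2-fold limit.

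The promoter windows of Tap1 (chr20:4668494-4668793, minus strand, GRCr8) and Psmb9 (chr20:4668750-4669049, plus strand) share 44 bases and are printed because the 2 genes start head to head yet differed in direction. Also searched were the ISRE core, the element of interferon-regulated genes (GAAA, any 2 bases and GAAA), GAS, a further interferon element (TTCNNNGAA), and the NF-kB site, on both strands, and capitals mark any match to the motifs searched.
Tap1: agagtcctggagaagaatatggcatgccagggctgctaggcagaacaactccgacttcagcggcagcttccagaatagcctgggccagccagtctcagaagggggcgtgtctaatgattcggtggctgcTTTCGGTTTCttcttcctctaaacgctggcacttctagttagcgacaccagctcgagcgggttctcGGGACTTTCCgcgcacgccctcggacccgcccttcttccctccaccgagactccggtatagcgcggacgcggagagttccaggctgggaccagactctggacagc
Psmb9: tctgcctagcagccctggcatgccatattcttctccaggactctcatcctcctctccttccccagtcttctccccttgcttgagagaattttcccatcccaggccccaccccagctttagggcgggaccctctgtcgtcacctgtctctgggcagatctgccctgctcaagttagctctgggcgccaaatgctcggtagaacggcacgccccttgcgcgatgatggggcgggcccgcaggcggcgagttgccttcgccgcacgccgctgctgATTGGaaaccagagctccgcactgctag
In Tap1 the capitals mark an ISRE core on the opposite strand, 121 bases before the gene start, and an NF-kB site 55 bases before it. In Psmb9 they mark a Y box core after the gene start. The 2 matches printed for Tap1 lie between the starts of both genes, outside the 44 shared bases, so the Psmb9 window does not reach them. These windows place the starts further apart than the 189 bases of the deposited coordinates. The windows therefore do not show which elements the 2 genes share. The ISRE core was present in 3.92% of all promoters and in 9 of the 36 matched genes, the NF-kB site in 4.18% and 10, and GAS in 8.87% and 2. No matches overlap in the printed windows, and these are letter matches only.

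Among class I genes, the light chain hardly moved while the heavy chains differed widely. B2m, the light chain β2-microglobulin (chr3:114087287-114093309), was the most abundant gene of all 43 per kilobase, at 14944 ± 420.0 counts per kilobase in the TNF-α group and 13759.7 ± 136 in the TNF-α+EMO group. Its normalized counts were 28029.5, 27379.5 and 26500.4 with TNF-α and 25243, 24855 and 25319 with TNF-α+EMO. The libraries did not overlap, but the log2 fold change was only -0.12 (standard error 0.05, adjusted p = 0.0456 by edgeR). This call was lost without TNF-α+EMO replicate 1 (adjusted p = 0.104), 2 (0.222) or 3 (0.0502) and with no filter on low counts (0.0849), within a range of 0.00137 to 0.222 over its 13 alternatives. The B2m promoter window (chr3:129549080-129549379, plus strand, GRCr8) is printed as that of the most abundant gene, with the matches in capitals in their order an ISRE core, an NF-kB site and a Y box core.
B2m: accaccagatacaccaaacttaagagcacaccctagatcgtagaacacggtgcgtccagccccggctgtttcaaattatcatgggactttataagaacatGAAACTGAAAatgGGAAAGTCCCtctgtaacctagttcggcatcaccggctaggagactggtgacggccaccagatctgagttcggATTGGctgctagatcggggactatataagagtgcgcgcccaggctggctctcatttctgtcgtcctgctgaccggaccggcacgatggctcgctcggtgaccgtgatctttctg
The matches lay 150, 137 and 64 bases before the gene start. Nlrc5 (chr19:10905542-10976396), the class I transactivator, fell from 342, 385 and 325 to 84.6, 74.7 and 70.3 normalized counts (-2.20, standard error 0.14, adjusted p = 6.02e-08), and its groups did not overlap.

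Of the 21 RT1 class I heavy chains, 16 were tested, and 12 were lower with EMO, 1 was higher and 3 were not called, where 41.4% of all tested genes were lower and 39.4% higher. With the fold limit, 8 of the 16 were lower (where all tested genes had 27.8%) and 1 higher (6.25%, where all tested genes had 19.5%). The classical chains RT1-A1 and RT1-A2, which present peptides to CD8 T cells, parted. RT1-A2 (chr20:5374985-5378539) fell from 1024, 970.3 and 909 to 425, 469 and 529 normalized counts (-1.03, standard error 0.10, adjusted p = 1.89e-06). RT1-A1 had 595, 627 and 583 against 477, 574 and 546, and was not called (log2 fold change -0.18, standard error 0.09, adjusted p = 0.0933). RT1-A1 passed the test with library totals (-0.29, adjusted p = 0.0116), with upper quartile scaling (-0.22, 0.0458) and without TNF-α replicate 3 (-0.27, 0.0487), within a range of 0.0116 to 0.393. The RT1-A1 gene model spans RT1-A2, so their reads may have been divided between them.

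The largest falls among the tested heavy chains were in the stretch of chromosome 20 that holds the RT1-N, RT1-S and RT1-T24 genes, nonclassical class I genes. RT1-S3 (chr20:3176107-3179818) fell from 274, 213 and 226 to 10.3, 9.21 and 9.17 normalized counts (-4.62, standard error 0.21, adjusted p = 4.36e-09). RT1-T24-1 fell from 256, 226 and 247 to 10.3, 12.3 and 19.4 (-4.11, standard error 0.23, adjusted p = 2.31e-08). For all 6 tested genes of this stretch, every TNF-α+EMO library lay below every TNF-α library. The groups did not overlap in 82.9% of all tested genes. RT1-S3 and RT1-T24-3 reached 10 counts in all 3 libraries only in the TNF-α group, which favours a difference. RT1-N2 and RT1-N3 had log2 fold changes of -3.29 and -2.20 (adjusted p = 1.96e-08 and 1.37e-07), and RT1-T24-3 and RT1-T24-4 of -3.33 and -1.83 (2.03e-06 and 6.49e-05). AABR07044364.1, a row outside the RT1 names that overlaps RT1-T24-1 on the same strand, fell by 5.67 on the log2 scale, and an antisense row with at most 24 counts overlaps RT1-N3, RT1-S3 and RT1-T24-4.

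RT1-CE7, RT1-M3-1 and RT1-CE4 had log2 fold changes between -0.74 and -0.95. RT1-CE7 fell from 1328, 1160.4 and 1215 to 624, 598 and 726 normalized counts (-0.93, standard error 0.09, adjusted p = 3.26e-06). RT1-M3-1, known for presenting formylated peptides, fell from 992, 998 and 973 to 430.1, 474 and 626 (-0.95, standard error 0.12, adjusted p = 3.17e-05). RT1-CE4 had -0.74 (adjusted p = 4.3e-05). RT1-CE3, at 13.7, 10.7 and 17.5 against 4.13, 4.09 and 6.11 normalized counts, had -1.53, but it reached the minimum through the TNF-α group alone, and without any TNF-α library it was not tested. RT1-CE5 had 457, 326 and 332 against 207, 311 and 298 normalized counts. Its call (-0.45, standard error 0.18, adjusted p = 0.0412) was lost without TNF-α replicate 1 (0.108) and without TNF-α+EMO replicate 1 (0.131) or 3 (0.0891), over a range of 0.0124 to 0.131. RT1-CE10, at 35.1 to 48.1 against 26.8 to 40.7, overlapped between the groups (-0.25, adjusted p = 0.423). The gene models of RT1-CE1, RT1-CE4 and RT1-CE7 run across long stretches that hold other RT1-CE genes as well as Ddx39b, which reached 3757 counts, so these values are uncertain. RT1-CE1 missed the minimum for testing, at 13, 6 and 4 counts against 0, 0 and 1, a ratio of 21.9 (95% counting interval 3.56 to 903) that was 14.3 (2.03 to 619) without TNF-α replicate 1.

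RT1-M6-2 was the single class I heavy chain that was higher with EMO, at 17.7, 8.78 and 16.6 against 44.4, 49.1 and 35.7 normalized counts (log2 fold change 1.58, standard error 0.33, adjusted p = 0.00108). Its neighbour RT1-M6-1 varied within both groups, at 42.2, 11.7 and 25.3 against 38.2, 33.8 and 13.2, and was not called (0.10, standard error 0.50, adjusted p = 0.854). The gene models of the pair overlap each other on the same strand, and both also overlap Znrd1as1 on the opposite strand. Znrd1as1 reached 116 counts, more than either RT1-M6 gene, so how reads were divided among these genes is uncertain. The remaining class I genes were close to empty: RT1-M4 held 0, 0 and 1 counts against 1, 4 and 2, RT1-M5 held 1, 1 and 0 against 5, 2 and 5, and RT1-M2 and RT1-S2 held at most 1 count in any library.

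Summed over the 21 heavy chains, the TNF-α libraries held 6610, 6133 and 6067 normalized counts and the TNF-α+EMO libraries 2805, 3055 and 3388. The sum was 2.04-fold lower with EMO (log2 fold change -1.03, standard error 0.08, adjusted p = 2.46e-07 by edgeR), and its groups were apart. With 3 class I-like rows outside the RT1 names added, an alternative chosen after seeing the data, it was -0.87 (adjusted p = 2.67e-05). Among these rows, LOC103690108 held 1212, 1038 and 1107 against 785, 934 and 1516 normalized counts and was not called (adjusted p = 0.859). The make-up of the sum moved as well. RT1-A1 went from 9.61% to 17.3% of the class I sum, while RT1-S3 went from 3.78% to 0.313%, RT1-T24-1 from 3.88% to 0.447% and RT1-N2 from 4.29% to 0.882%. RT1-CE7 held the largest share in both groups, at 19.7% and 21.1%. Since B2m moved little, there were 4.24, 4.46 and 4.37 B2m counts per heavy chain count with TNF-α alone and 8.998, 8.13 and 7.47 with EMO added.

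**Figure D4:**
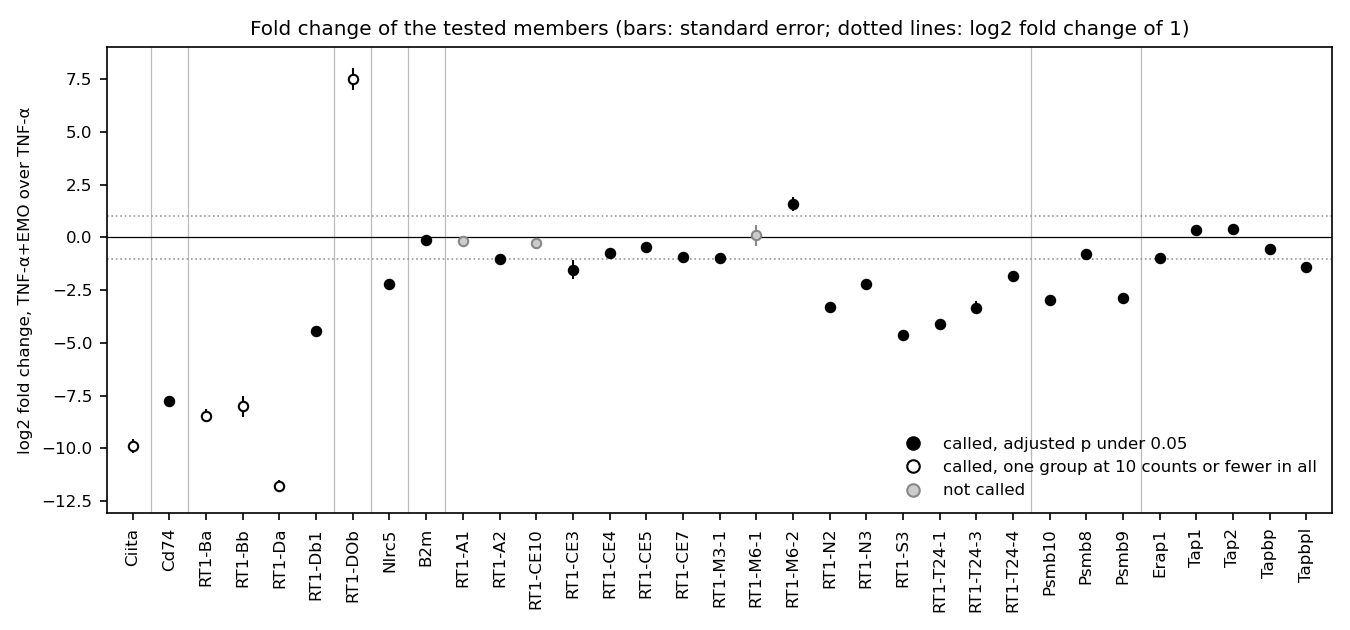
The log2 fold change (TNF-α+EMO over TNF-α) of the 33 tested genes is shown by role, with dotted lines at a log2 fold change of 1 in either direction. Bars are standard errors derived from the F test of edgeR, which can be narrow where 1 group is near empty. For RT1-Da, with 1 count in all with EMO, the bar was 0.28, where DESeq2 gave 1.18. The class II chains other than RT1-DOb, with Ciita and Cd74, lay between -4.44 and -11.80, and B2m, RT1-A1 and RT1-CE10 lay close to 0.

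Other genes of the pathway were read from 6 lists by function. Of 53 listed genes 49 were matched, and March1, March8, Raet1d and Raet1l were not analysed here. Of the 43 tested, 18 were lower and 16 higher with EMO and 9 were not called, and with the fold limit 13 were lower (30.2%) and 8 higher (18.6%). These shares lie near the 27.8% and 19.5% of all tested genes. Their median log2 fold change was -0.09. Among them, Ctss, Cd1d1, Azgp1, Vtcn1 and Cd40 reached the minimum only through the group in which they were higher, which favours a difference.

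Counts by list are a description, to be read beside the 41.4% of all tested genes that were lower and the 39.4% that were higher. Among 13 tested genes of MHC transcription, 6 were lower (46.2%), 2 higher and 5 not called. Irf1, a transcription factor that interferon induces and that acts on class I, Tap1 and Ciita promoters, fell by 1.38 on the log2 scale (adjusted p = 5.91e-09). The interferon-γ receptor chain Ifngr1 fell by 0.84 (adjusted p = 2.9e-06). The 2 that rose were its partner chain Ifngr2, from 1701, 1600.2 and 1682 to 2597, 2449.7 and 2455 normalized counts (log2 fold change 0.59, adjusted p = 3.66e-06), and the kinase Jak1 (0.38, 0.000856). Jak2 fell by 1.36 on the log2 scale (adjusted p = 3.18e-08 by edgeR) and Irf2 by 0.97 (3.05e-06). In the RFX complex, Rfx5 fell from 1324, 1263 and 1276 to 398, 339.7 and 392 normalized counts (-1.77, adjusted p = 6.51e-09). Rfxank was not called (-0.09, adjusted p = 0.507) and Rfxap had no count in any library.

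Among 5 chaperones of peptide loading and their kin, 4 were higher and 1 was not called. Calreticulin (Calr), calnexin (Canx) and Pdia3, which hold the heavy chain during loading, rose by log2 fold changes of 0.31, 0.54 and 0.39 (adjusted p = 0.000152, 3.22e-05 and 0.000208). The other that rose was Hspa5, the general chaperone BiP of the endoplasmic reticulum (2.81, adjusted p = 8.92e-12). Of 6 tested genes of endosomal processing, 2 were lower and 3 higher. The 3 that rose were abundant endosomal proteases. Cathepsin B (Ctsb) rose from 12141, 12805 and 12398 to 53571, 57045 and 53091 normalized counts (log2 fold change 2.13, adjusted p = 5.85e-11), cathepsin L (Ctsl) by 1.47 (6.78e-10) and cathepsin D (Ctsd) by 1.22 (1.36e-08). Cathepsin S (Ctss), which trims the invariant chain, held 18, 15 and 13 counts with TNF-α and none with EMO, at least 14.6-fold lower against a floor of 3 counts over the group. It reached the minimum for testing through the TNF-α group alone. Ifi30, the thiol reductase of endosomes, fell from 276, 259 and 271 to 54.7, 65.5 and 73.3 normalized counts (-2.06, adjusted p = 2.79e-07).

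Of 7 MHC-like molecules, which share the class I fold, 5 were lower, 1 was higher and 1 was not called. Mr1, which shows vitamin metabolites to MAIT cells, fell from 398, 422 and 387 to 71.2, 72.7 and 80.5 normalized counts (-2.43, adjusted p = 9.71e-09). Hfe, a regulator of iron uptake that pairs with B2m, fell from 1206, 1262 and 1035 to 133, 130.0 and 114 (-3.21, adjusted p = 4.65e-10). The Fc receptor Fcgrt, which also pairs with B2m, was not called (0.19, adjusted p = 0.0949). The others that were lower were Cd1d1, Azgp1 and Raet1e, and Procr was higher (0.93, adjusted p = 2.23e-05). Cd1d1 and Azgp1 reached the minimum for testing through the TNF-α group alone. Among costimulatory genes 3 were lower and 2 higher of 5 tested. Cd80, a ligand of CD28, rose from 52.0, 34.1 and 39.0 to 191, 169.9 and 148 normalized counts (2.02, adjusted p = 4.8e-06). Its relative Cd86 held at most 3 counts in any library, and the inhibitory ligand Cd274 fell by 0.78 on the log2 scale (adjusted p = 0.00814). The others called were Cd40, which was higher (1.34), and Cd276 and Vtcn1, which were lower (-0.30 and -3.99). Vtcn1 reached the minimum through the TNF-α group alone. Cd40 held 6, 13 and 14 counts with TNF-α and 28, 33 and 19 with TNF-α+EMO.

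**Figure D5:**
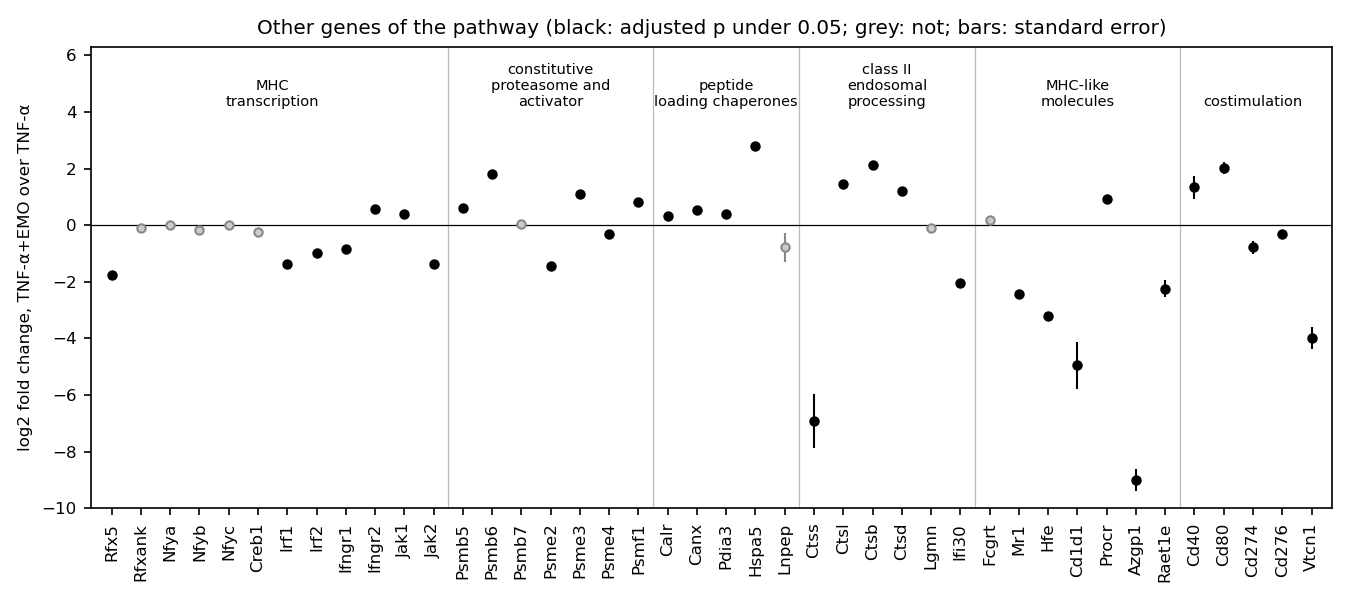
The log2 fold change (TNF-α+EMO over TNF-α) with its standard error is shown for tested genes of the 6 functional lists, with called genes in black and others in grey. Rfx5 lay at -1.77 and Irf1 at -1.38 among genes of MHC transcription, and Calr, Canx and Pdia3 lay between 0.31 and 0.54 among the loading chaperones.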

How the data were processed

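Poly(A)-selected RNA of 3 TNF-α and 3 TNF-α+EMO libraries of rat RA-FLS was sequenced in pairs by the study's provider. The submitters' processing notes name FastQC, Trimmomatic, HISAT2 and the build Rnor_6.0. The counting program, the annotation release and the strand setting are not given in the sources used here. The authors deposited raw counts per gene for each library, with gene coordinates and lengths. Their FPKM values and their own comparison columns (group means, fold changes, p-values and adjusted p-values) were not used. Groups and replicate numbers were taken from the sample labels.

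Genes that reached 10 counts in 3 or more libraries were scaled by TMM and modelled in edgeR 4.0.16 under R 4.3.3 (robust quasi-likelihood fit and F test, Benjamini-Hochberg over the genes tested, no block). Standard errors were derived from the F test, as the absolute log2 fold change divided by the square root of F. Normalized counts are counts divided by the effective size of their library relative to the average of all 6. The RT1 class I rows and the RT1 class II rows were also summed before a fit over the whole table. The steps were tested on simulated data in which few genes changed, equally in both directions. In the data 47.3% of all tested genes passed the fold limit in either direction. The simulation therefore did not test the scaling, or small fold changes, under so wide a change. Alternatives were DESeq2 1.42.0, other scalings, filters and thresholds, the replicate block, collapsed RT1 rows, shares without gene length and leaving out each library in turn.

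The genes and the lists were chosen with earlier results of these data known. Every gene of the choice that was tested was named, and of the others those above 3 counts in any library. The pathway lists were set by function, and some of the genes named from them were named after their values were seen. The values of 1 pathway gene are not reported here. Depth was 16813322 to 17794455 counts per library. A floor of 3 counts was used, and intervals at 95% cover counting error alone, because reads lacking molecular identifiers can be copies of each other. Promoters were RefSeq sequences of build GRCr8, whose coordinates differ from those of Rnor_6.0. Of the marker lists, Col1a2 and Pecam1 were not analysed here.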

Additional observations from a re-analysis of the deposited data

How the results depend on the processing

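Of the 33 tested genes, 28 kept their direction and call under all alternatives that could be fitted for them (at most 13), and B2m, RT1-A1, RT1-CE5, Tap2 and RT1-M6-1 did not. RT1-M6-1, not called, turned negative with library totals (-0.0037), without TNF-α replicate 2 (-0.32) and without TNF-α+EMO replicate 1 (-0.14) or 2 (-0.015), over leave-one-out values of -0.32 to 0.54. The count of genes lower by over 2-fold was 18, and 8 with the RT1 rows of each class collapsed. It was 14 to 19 when 1 library was left out. The count higher was 2, and 1 with a minimum of 50 counts or a log2 limit of 2, 4 with no fold limit, 0 with collapsed rows and 1 to 2 when 1 library was left out. Without division by gene length the share of Psmb8 differed by -20.6 percentage points (-13.2 with it), that of Psmb9 by -57.7 (-42.7) and that of Psmb10 by -43.7 (-47.8). Leaving out 1 library gave log2 fold changes of -1.12 to -0.94 for the class I sum and -4.95 to -4.76 for the class II sum. Library totals moved the median of all genes from -0.01 to -0.12, and no filter to -0.13.

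The replicate numbers did not pair the libraries: deviations of same-numbered libraries correlated by 0.009, -0.007 and 0.079. With the replicate number as a block, 19 genes were lower and 2 higher by over 2-fold, the class I sum was at -1.03 and the class II sum at -4.84, and the calls for B2m (adjusted p = 0.0909), RT1-CE5 (0.0858) and Tap2 (0.0756) were lost by edgeR.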
